A study of Mus musculus with 2 samples.

Results

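Genes of voltage-gated calcium channels, voltage-gated sodium channels, chloride channels of the CLC and CLIC families and cation channels of the TRP families were examined in E18.5 mouse cochleae. They were taken by symbol in the annotation of the Affymetrix MOE430A array, with symbols that begin with Cacn, Clcn or Clic, with Scn and a digit, or with Trpc, Trpv, Trpm or Trpml and a digit. The rule found 57 of the 12393 genes measured, namely 23 calcium channel genes, 9 sodium channel genes, 10 CLC and CLIC genes and 15 TRP genes. No symbol began with Trpml. *Trpc4ap* entered by its symbol alone, since it encodes a partner protein of a TRP channel and not a channel. Of genes with several probe sets, the one with the highest mean level was used.

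Levels came from 2 deposited columns of values, 1 titled -/- and 1 titled +/+, of embryos at 18.5 days from matings of *Igf1* heterozygotes on a C57BL/6J background. Each column is called an array here, but the sources do not say whether it summarises several arrays, and the methods describe several independent RNA pools of each genotype. *Igf1* encodes insulin-like growth factor I, and the mutant carries a targeted disruption of the gene. The genotype of either array could not be settled, because the source name and description of each give the genotype opposite to its title. Values are therefore given under the title of their array, differences are titled -/- minus titled +/+, and every sign would turn if the source names were right. RNA came from pooled whole cochleae with the bony otic capsule, 8 per array by the labels, so hair cells, neurons, strial cells and cartilage were read together.

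Voltage-gated calcium channels (CaV) consist of a pore subunit, called alpha1, with alpha2delta, beta and in some tissues gamma subunits that set its surface level and gating. In inner hair cells, calcium entry through an L-type channel triggers transmitter release onto the auditory neurons. Voltage-gated sodium channels (NaV) carry the action potentials of those neurons. CLC proteins are chloride channels of the cell surface or chloride-proton exchangers of endosomes and lysosomes, and TRP channels pass cations in response to lipids, heat, swelling or ligands.

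Each title had a single column of values, so differences were not tested and carry no p-value, and any spread between pools or arrays behind a column is unknown. The number of arrays limits the precision. As a measure of error, the SD of the difference among probe sets of the same gene was 0.096 log2 units in the high tier of level, 0.22 in the middle tier and 1.08 in the low tier, where the tiers are 3 equal groups of genes by mean level that meet at levels of 5.73 and 8.02. For this SD each probe set was placed by its own level, and only probe sets of a gene within the same tier were compared. Over all levels it was 0.61. This SD covers the choice of probe set, not animals or arrays. Cochlear genes were read on both arrays, with *Otor* at 12.37 under the -/- title and 12.57 under the +/+ title, *Coch* at 9.20 under the -/- title and 9.58 under the +/+ title and the hair cell gene *Myo7a* at 6.91 under the -/- title and 6.89 under the +/+ title. *Igf1* itself was at 11.03 under the -/- title and 11.42 under the +/+ title, and its other probe sets were also lower under the -/- title, by -0.75 and -0.58. Whether these probes lie in the disrupted part is not given in the sources. Probe sets differ in how strongly they bind, so tiers and other comparisons of level between genes describe array signal, not amounts of RNA.

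Of the 57 genes, 10 lay in the high tier of level, 21 in the middle tier and 26 in the low tier, and 15 were above the median level of all genes, 7.10. *Cacnb2* and *Cacna1b* were listed at 0 under the -/- title and *Trpm8* on both arrays. Higher levels under the -/- title were found for 36 genes and lower ones for 20, against 50.5% of all genes with a positive difference. The median difference was 0.087 log2 units, against 0.0028 over all genes. Probe sets of a gene varied least where they themselves lay at high and middle levels. In the high and middle tiers, 23 of 31 channel genes were higher under the -/- title (74.2%), against 50.4% of all genes in these tiers. Their median difference was 0.12. In the low tier, 13 were higher and 12 lower, with 50.7% of all genes there higher.

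**Figure D1:**
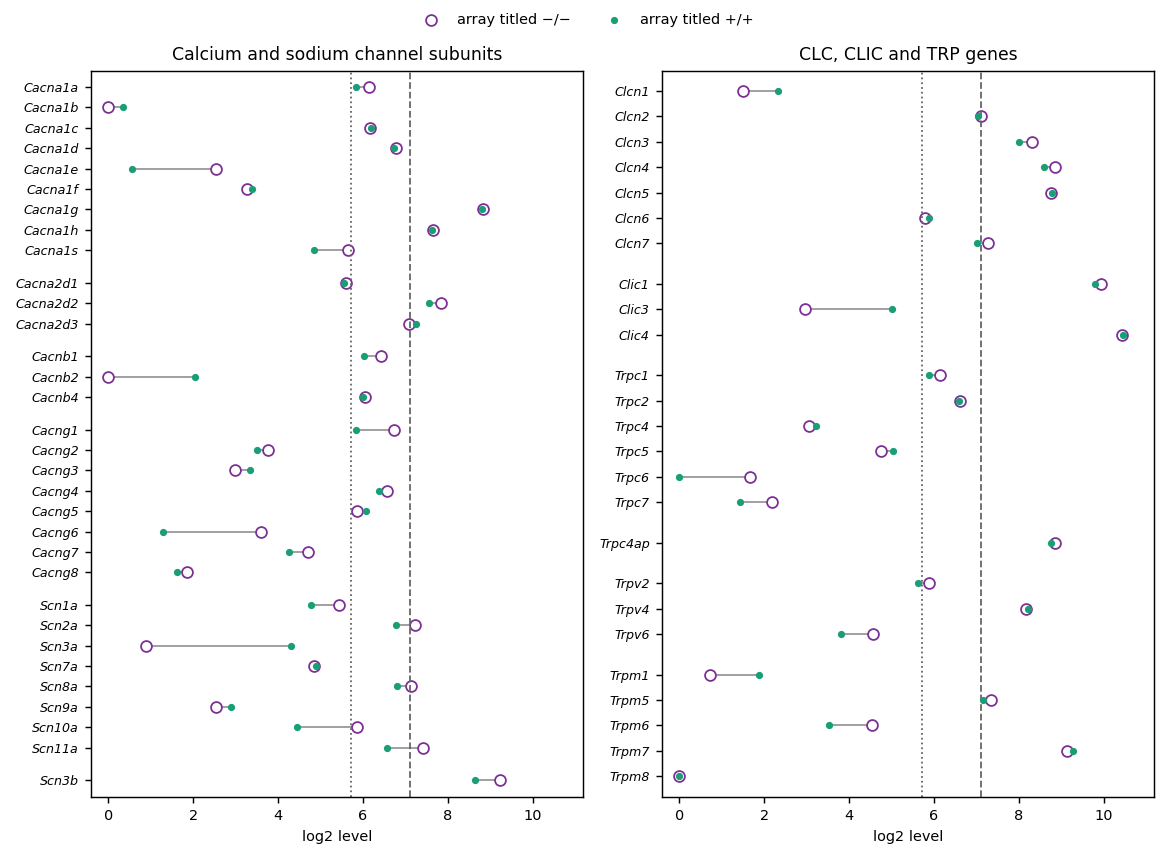
Log2 level of the 57 genes under the -/- title (open purple) and the +/+ title (filled green), linked by a line, each gene read by 1 probe set. The dotted line marks the upper limit of the low tier of genes, 5.73, the dashed line the median of all genes, 7.10, and the longest lines, such as that of *Scn3a*, lie left of the dotted line.

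A difference above 1 log2 unit, the fold limit used in the study, was found for 5 genes, *Cacna1e*, *Cacng6*, *Scn10a*, *Trpc6* and *Trpm6*, against 5.54% of all genes. A difference below -1 was found for 4 genes, *Cacnb2*, *Scn3a*, *Clic3* and *Trpm1*, against 4.07% of all genes. All 9 lay in the low tier of level, where 15.6% of all genes were above 1 and 11.9% below -1. None of the 31 channel genes in the high and middle tiers passed this limit, as was the case for all but 0.654% of the genes there. At a limit of 0.5, 12 of the 57 genes were above it and 5 below -0.5, against 12% and 8.6% of all genes. Of the 31, 3 were higher by more than 0.5 under the -/- title, *Cacng1*, *Scn11a* and *Scn3b*, against 3.11% of genes in these tiers. None was lower by 0.5, against 1.27%.

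**Figure D2:**
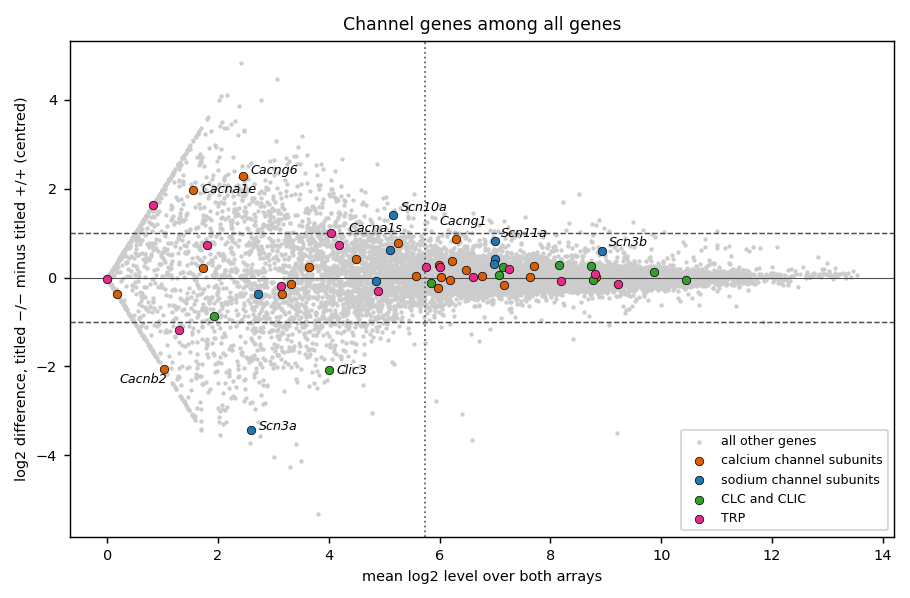
Centred log2 difference (titled -/- minus titled +/+) against the mean level of the 2 arrays (log2), 1 point for each gene, channel genes in colour by family and all other genes in grey. Dashed lines mark 1 and -1 and the dotted line the upper limit of the low tier of level, 5.73, to the right of which no channel gene passes 1, with *Cacng1* at 0.87, *Scn11a* at 0.82 and *Scn3b* at 0.59.

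Of the calcium channel pore genes above the low tier, 4 of 5 differed by less than 0.05 in their strongest probe set, while weaker probe sets of 2 of these 4 gave larger values. The T-type pore genes *Cacna1g* and *Cacna1h*, whose channels open at low voltage, were at 8.83 and 7.65 under the -/- title and at 8.80 and 7.62 under the +/+ title, with differences of 0.015 and 0.0051. The weaker *Cacna1h* probe set, at 1.95 under the -/- title and 3.20 under the +/+ title, differed by -1.28, and the 2 probe sets averaged -0.64. *Cacna1d*, the L-type pore gene of inner hair cells, was at 6.78 under the -/- title and 6.73 under the +/+ title, a difference of 0.026. Its second probe set, at 5.49 under the -/- title and 5.09 under the +/+ title, differed by 0.38, the value of the gene when probe sets ending in _x_at or _s_at are left out. The L-type pore gene of heart and smooth muscle, *Cacna1c*, was at 6.17 under the -/- title and 6.19 under the +/+ title, a difference of -0.045. The 4 differences of the strongest probe sets were below the SD between probe sets at their levels. *Cacna1a*, the P/Q-type pore gene of nerve terminals, was at 6.14 under the -/- title and 5.84 under the +/+ title, a difference of 0.28 that passed that SD of 0.22. Its weaker probe set differed by 0.56.

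The other pore genes were in the low tier of level. *Cacna1f*, the L-type pore gene of photoreceptor terminals, which the study lists among its candidate genes, was at 3.26 under the -/- title and 3.38 under the +/+ title, a difference of -0.15. *Cacna1e*, the R-type pore gene, was at 2.54 under the -/- title and 0.56 under the +/+ title, a difference of 1.96, and *Cacna1b*, the N-type pore gene, was listed at 0 under the -/- title and at 0.34 under the +/+ title. All these levels lay below the 25th percentile of genes, 4.65. The *Cacna1e* difference became 0 once levels were raised to the 25th percentile of all probe sets on each array. Its size could therefore not be read at this signal.

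Among alpha2delta subunits, *Cacna2d2* was at 7.85 under the -/- title and 7.57 under the +/+ title, a difference of 0.26, while *Cacna2d3* was at 7.09 under the -/- title and 7.24 under the +/+ title, a difference of -0.17. *Cacna2d1* was at 5.61 under the -/- title and 5.55 under the +/+ title, a difference of 0.034, with -0.65 for its second probe set. Among beta subunits, which bind the pore subunit inside the cell, *Cacnb4* was at 6.04 under the -/- title and 6.01 under the +/+ title, a difference of 0.0062. The second *Cacnb4* probe set, in the low tier, differed by -1.10, and the 2 probe sets averaged -0.55. *Cacnb2*, whose protein pairs with the L-type pore subunit of inner hair cells, was listed at 0 under the -/- title and at 2.04 under the +/+ title, too low for a fold. Hair cell markers differed little beside it, with 3 of 8 higher under the -/- title, a median of -0.11 and none at 0.

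Gamma subunits fall into those of muscle and those that act mainly as transmembrane regulators of AMPA glutamate receptors (TARPs). Of the TARP genes, *Cacng4* was at 6.58 under the -/- title and 6.39 under the +/+ title, and *Cacng5* at 5.87 under the -/- title and 6.08 under the +/+ title, with differences of 0.17 and -0.23. *Cacng2* (stargazin), *Cacng3*, *Cacng7* and *Cacng8* were in the low tier, with differences between -0.36 and 0.41. None of these 4 differences reached the SD of 1.08 there.

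Of 5 channel subunits known from skeletal muscle, 4 had higher levels under the -/- title, against 50.5% of all genes. Their median difference was 0.37, and *Scn4a* was not analysed here. The 4 include *Cacna2d1*, which differed by only 0.034, with -0.65 for its second probe set. In muscle fibres, the L-type channel of the transverse tubules senses the action potential and opens the calcium release channel of the internal store. *Cacng1*, the gamma subunit of that channel, was at 6.74 under the -/- title and 5.85 under the +/+ title, and its difference of 0.87 was the largest of the 31 channel genes in the high and middle tiers. *Cacna1s*, its pore subunit, was at 5.66 under the -/- title and 4.85 under the +/+ title, a difference of 0.79 within the low-tier SD of 1.08. *Cacnb1*, its beta subunit, was at 6.42 under the -/- title and 6.03 under the +/+ title, a difference of 0.37, and its second probe set differed by 0.30, its weakest by -0.16. *Cacng6*, another gamma subunit of muscle, was at 3.59 under the -/- title and 1.29 under the +/+ title, but its weaker probe set went the other way, by -1.75. *Clcn1*, the chloride channel that steadies the resting potential of muscle fibres, was at 1.50 under the -/- title and 2.34 under the +/+ title, a difference of -0.86 within the SD of its level.

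Muscle markers were higher under the same title. Of 16 skeletal muscle markers, 15 were higher under the -/- title, against 50.5% of all genes, with a median of 0.83 and none listed at 0. Their summed level (levels taken out of the log scale and added) was 34603 under the -/- title and 20748 under the +/+ title. All marker lists used here were chosen with earlier results of these data known. Their directions are thus no independent support for those of the channel genes. *Myh3*, embryonic myosin, was at 11.54 under the -/- title and 10.46 under the +/+ title, *Acta1* at 13.06 under the -/- title and 12.58 under the +/+ title, and *Myod1*, the exception, at 5.09 under the -/- title and 5.20 under the +/+ title. The part of muscle tissue in the differences of *Cacng1*, *Cacna1s* and *Cacnb1* was not tested. In pooled tissue, fewer cells of a type and less RNA per cell cannot be told apart.

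The promoters of *Cacna1s* and *Clcn1* are shown because both genes serve muscle fibres. Neither difference passed the SD of its tier. That of *Clcn1* became 0 once levels were raised to the 25th percentile of all probe sets on each array. The sequences were taken from RefSeq (GRCm38.p6), run 5′ to 3′ through the start site, and lie at chr1:136052561-136052860 and chr6:42286435-42286734, both on the plus strand. Capitals mark matches to CANNTG, the E-box that MyoD and many other factors bind, and in *Clcn1* also the single match to the MEF2 consensus, which begins 51 bases before the start site and overlaps none of the E-boxes.
Cacna1s: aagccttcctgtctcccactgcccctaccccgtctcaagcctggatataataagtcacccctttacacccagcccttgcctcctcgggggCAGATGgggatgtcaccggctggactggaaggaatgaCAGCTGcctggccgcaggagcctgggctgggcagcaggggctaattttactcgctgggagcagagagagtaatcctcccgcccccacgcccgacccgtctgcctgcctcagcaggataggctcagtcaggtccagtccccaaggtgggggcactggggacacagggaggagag
Clcn1: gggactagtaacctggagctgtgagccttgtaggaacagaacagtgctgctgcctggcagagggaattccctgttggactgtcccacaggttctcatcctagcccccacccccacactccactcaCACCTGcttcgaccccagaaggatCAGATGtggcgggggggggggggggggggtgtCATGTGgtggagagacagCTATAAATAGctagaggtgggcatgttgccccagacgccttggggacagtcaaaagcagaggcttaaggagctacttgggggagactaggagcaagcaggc
*Cacna1s* held 2 E-boxes, 160 and 123 bases before the start site, and *Clcn1* held 3, at 125, 101 and 69 bases. Searched on both strands, E-boxes were found in 54 of 67 promoters of 50 channel genes, against 72.3% of all 32851 promoters of this length, and the MEF2 consensus in 2 of the 67, those of *Clcn1* and *Clcn3*, against 3.19% of all. No entry was found for *Cacng1*, *Cacng4*, *Cacna1a*, *Cacna1g*, *Cacna1h*, *Scn3a* and *Scn3b*.

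All 4 sodium channel genes above the low tier of level were higher under the -/- title, against 50.4% of all genes there. *Scn3b*, an auxiliary beta subunit of neurons, was at 9.24 under the -/- title and 8.63 under the +/+ title, a difference of 0.59. A difference above 0.5 was found for 1.74% of genes in the high tier, and its second probe set differed by 0.41. *Scn11a*, a pore gene of peripheral sensory neurons, was at 7.42 under the -/- title and 6.57 under the +/+ title, a difference of 0.82, where 4.48% of genes in the middle tier passed 0.5. *Scn8a*, the pore gene of nodes of Ranvier, was at 7.14 under the -/- title and 6.81 under the +/+ title, a difference of 0.30, and its second probe set differed by 0.70. *Scn2a*, a pore gene of central axons, was at 7.23 under the -/- title and 6.78 under the +/+ title, a difference of 0.42. Its weaker probe set, at 1.40 under the -/- title and 3.06 under the +/+ title, differed by -1.68. The 2 *Scn2a* probe sets averaged -0.63, of the opposite sign.

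Of the 5 sodium channel genes in the low tier, 2 were higher and 3 lower under the -/- title. *Scn10a*, also of peripheral sensory neurons, was at 5.87 under the -/- title and 4.44 under the +/+ title, a difference of 1.41. *Scn1a*, of central and sensory neurons, was at 5.44 under the -/- title and 4.78 under the +/+ title, a difference of 0.63, and its second probe set at 4.58 under the -/- title and 2.06 under the +/+ title. In the other direction, *Scn3a*, a pore gene of embryonic neurons, was at 0.88 under the -/- title and 4.29 under the +/+ title, a difference of -3.43. Its size rests on a level near the floor under the -/- title and on a single probe set. It shrank to -0.20 once levels were raised to the 25th percentile of all probe sets on each array. *Scn7a*, a sodium sensor of glia and Schwann cells, was at 4.84 under the -/- title and 4.88 under the +/+ title and *Scn9a* at 2.54 under the -/- title and 2.90 under the +/+ title, with differences of -0.069 and -0.38.

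Neuronal markers were higher on the same array as the readable sodium channel genes, for 7 of 10, against 50.5% of all genes. Their median was 0.41, with a summed level of 7119 under the -/- title and 6156 under the +/+ title, and none at 0. *Tubb3* differed by 0.67 and *Gap43* by 0.47, while *Nefl* and *Nefm*, of neurofilaments, were each at -0.18. Markers of hindbrain and central glia were higher for 7 of 8, with *Zic1* at 10.33 under the -/- title and 9.33 under the +/+ title and none at 0. Their summed level was 3516 under the -/- title and 2776 under the +/+ title. *Zic1* and *Pdgfra* had the highest levels of this list and weigh most in the sum, with *Pdgfra* at 10.63 under the -/- title and 10.68 under the +/+ title. Schwann cell markers were higher for 1 of 5, with a median of -0.15. Whether neuronal or hindbrain tissue had a part in the sodium channel differences was not tested.

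The promoter of *Scn11a* (RefSeq, GRCm38.p6, chr9:119825407-119825706, minus strand, read 5′ to 3′ along the gene) is shown as that of the sodium channel pore gene with the largest difference at a readable level. Capitals mark its 2 E-boxes, 59 and 4 bases before the start site, and it held no match to the MEF2 consensus.
Scn11a: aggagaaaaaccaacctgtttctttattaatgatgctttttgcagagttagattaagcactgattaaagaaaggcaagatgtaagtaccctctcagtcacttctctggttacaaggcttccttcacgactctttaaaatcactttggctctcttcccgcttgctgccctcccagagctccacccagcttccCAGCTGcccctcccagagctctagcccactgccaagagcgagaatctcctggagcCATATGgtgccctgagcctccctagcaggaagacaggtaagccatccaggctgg
Both E-box counts and positions describe the sequence alone, since binding was not measured.

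The endosomal chloride-proton exchanger genes *Clcn3*, *Clcn4* and *Clcn5* lay in the high tier of level. No CLC gene above the low tier differed by more than 0.28 in its strongest probe set. *Clcn3* was at 8.31 under the -/- title and 8.00 under the +/+ title, a difference of 0.28. Its next probe set, at 7.96 under the -/- title and 8.02 under the +/+ title, differed by -0.08. The third differed by 0.25 and the weakest, in the low tier, by -0.98, and the mean over all 4 was -0.13, of the opposite sign. *Clcn4* was at 8.87 under the -/- title and 8.59 under the +/+ title, a difference of 0.25, with 0.054 for its second probe set. *Clcn5*, the exchanger lost in Dent's disease of the kidney, was at 8.76 under the -/- title and 8.79 under the +/+ title, a difference of -0.045. *Clcn7*, the lysosomal exchanger needed by bone-resorbing osteoclasts, was at 7.27 under the -/- title and 7.01 under the +/+ title, and its 2 probe sets differed by 0.23 and 0.22. *Clcn6*, of late endosomes, and *Clcn2*, a channel of the cell surface, differed by -0.11 and 0.058, less than the SD of 0.22 in their tier.

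CLIC proteins are soluble proteins that can insert into membranes and also act at the cytoskeleton. *Clic4* was at 10.43 under the -/- title and 10.46 under the +/+ title, and its 3 probe sets differed by -0.052, -0.033 and -0.14. *Clic1* was at 9.94 under the -/- title and 9.79 under the +/+ title, a difference of 0.12. *Clic3* stood apart at a low level, 2.97 under the -/- title and 5.02 under the +/+ title, a difference of -2.08 read by 1 probe set. Lung epithelial markers had the same sign, with 6 of 6 lower under the -/- title, where 50.5% of all genes were higher. Their summed level was 299 under the -/- title and 2359 under the +/+ title, and none was at 0. Their part in the *Clic3* value was not tested.

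Of the TRP genes, 3 lay in the high tier, and their strongest probe sets differed by -0.15 to 0.087. *Trpm7*, a ubiquitous channel fused to a kinase that passes magnesium, was at 9.15 under the -/- title and 9.28 under the +/+ title, with differences of -0.15 and -0.044 for its first and second probe sets. Its weakest probe set, in the low tier, differed by 1.04, and the mean over all 3 was 0.28, of the opposite sign. *Trpv4*, an osmosensitive channel of the inner ear and of cartilage, was at 8.17 under the -/- title and 8.22 under the +/+ title, a difference of -0.073. *Trpc4ap*, the partner protein, was at 8.87 under the -/- title and 8.76 under the +/+ title, a difference of 0.087.

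In the middle tier, *Trpm5*, known from taste cells, was at 7.35 under the -/- title and 7.15 under the +/+ title, a difference of 0.18. *Trpv2*, of sensory neurons and macrophages, was at 5.88 under the -/- title and 5.62 under the +/+ title, a difference of 0.24, and *Trpc1*, a widely expressed subunit, was at 6.14 under the -/- title and 5.89 under the +/+ title, a difference of 0.23. The second *Trpc1* probe set, in the low tier, was at 4.12 under the -/- title and 1.19 under the +/+ title, a difference of 2.91, and the mean over both was 1.57. *Trpc2*, the pheromone-sensing channel of the mouse vomeronasal organ, was at 6.63 under the -/- title and 6.59 under the +/+ title, a difference of 0.01. *Trpv2* and *Trpc1* lay just past the SD of 0.22 between probe sets there and the other 2 within it.

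The 8 TRP genes of the low tier went in both directions. *Trpm6*, of magnesium uptake in kidney and gut, was at 4.54 under the -/- title and 3.52 under the +/+ title, a difference just above 1, and *Trpv6*, of epithelial calcium uptake, was at 4.56 under the -/- title and 3.81 under the +/+ title, a difference of 0.73. *Trpc6* was at 1.67 under the -/- title and at the floor under the +/+ title. *Trpm1*, expressed in melanocytes and retinal bipolar cells, was at 0.72 under the -/- title and 1.87 under the +/+ title, while its second probe set went the other way, at 1.74 under the -/- title and 0.065 under the +/+ title. Melanocyte markers, a list that includes *Trpm1*, were higher for 1 of 6, against 50.5% of all genes. These markers had a median of -0.46, a summed level of 675 under the -/- title and 909 under the +/+ title, and *Dct* and *Pmel* both at a difference of -0.54. Their part in the *Trpm1* value was not tested. *Trpc4*, *Trpc5* and *Trpc7* differed by -0.19, -0.29 and 0.74, and *Trpm8*, the cold sensor, was listed at 0.

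Repeat readings by other probe sets bore on 23 of the 57 genes. All probe sets of a gene were higher under the -/- title for 8, all were lower for 3 and they went in opposite directions for 12. Such counts were not made over all genes, so these have no share to be set beside. Among the 7 genes with several probe sets above the low tier of level, all were higher for 3, all lower for 2 and opposite for 2, *Clcn3* and *Clcn5*. *Cacng1* and *Scn11a* were each read by 1 probe set.

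**Figure D3:**
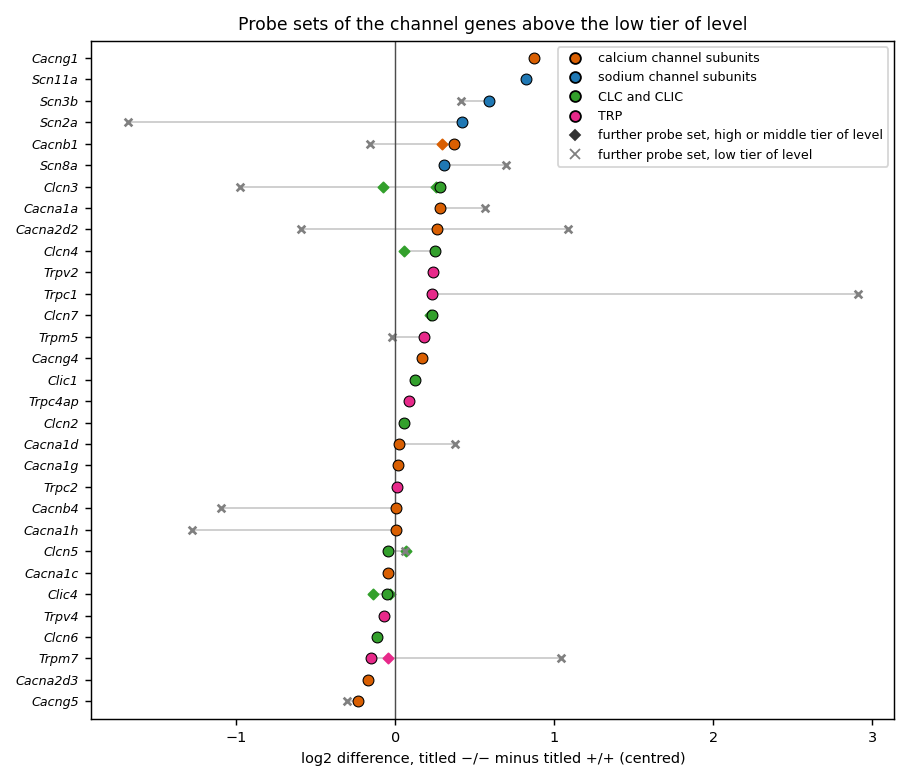
Centred log2 difference (titled -/- minus titled +/+) of the 31 genes in the high and middle tiers of level, with the probe set of the highest level as a circle coloured by family and further probe sets as diamonds where their own level was above 5.73 and as grey crosses where it was below. The longest lines, such as those of *Trpc1* and *Scn2a*, end in grey crosses, and 23 circles lie right of 0.

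Channel genes that lie beside each other in the genome went in opposite directions in some clusters and in the same direction in others. By the RefSeq order, with starts at most 1 Mb apart, 21 of the 57 genes fell into 8 clusters. The sodium channel cluster of chromosome 2 holds *Scn3a*, *Scn2a*, *Scn1a*, *Scn9a* and *Scn7a*, in that order, with differences of -3.43, 0.42, 0.63, -0.38 and -0.069. On chromosome 9, *Scn10a* and *Scn11a* are neighbours and differed by 1.41 and 0.82. On chromosome 11, *Cacng1*, *Cacng4* and *Cacng5* lie side by side and differed by 0.87, 0.17 and -0.23, with the muscle subunit first and both TARP genes after it.

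Other genes of ion handling were read from 8 partner lists, of which 53 of 78 genes were measured. On the array titled -/-, 30 had higher and 21 lower levels, with 50.5% of all genes higher. Of the 53, 4 were above 1 and 1 below -1, against 5.54% and 4.07% of all genes. The calcium release channel of skeletal muscle, *Ryr1*, was at 7.82 under the -/- title and 6.77 under the +/+ title, a difference of 1.03. *Ryr2* was at 5.25 under the -/- title and 3.17 under the +/+ title, a difference of 2.05. It lay in the low tier, where the SD between probe sets was 1.08, and only the stronger of its 2 probe sets is given. Calsequestrins, which store calcium in muscle, differed by 1.24 for *Casq2* and 0.69 for *Casq1*, and the muscle calcium pump *Atp2a1* by 0.69. The broadly expressed pump *Atp2a2* was at 10.27 under the -/- title and 10.32 under the +/+ title, a difference of -0.07.

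Of the cytosolic calcium buffers, *Pvalb* differed by 0.045 and *Calb1* by -0.39, and the calcium-binding protein genes *Cabp2* and *Cabp4* were listed at 0 on both arrays. *Bsnd*, the barttin subunit of strial chloride channels, was at 3.79 under the -/- title and 4.91 under the +/+ title, a difference of -1.15, and *Scnn1b*, an epithelial sodium channel subunit, was at 4.52 under the -/- title and 2.99 under the +/+ title, a difference of 1.51. Both were in the low tier. All 6 strial marginal cell markers, *Bsnd* among them, were lower under the -/- title, with a median of -1.51. Of these, 4 lay in the low tier, and the 1 in the high tier, *Slc12a2*, differed by -0.21. The 1 in the middle tier, *Esrrb*, was at 6.66 under the -/- title and 7.24 under the +/+ title, a difference of -0.60. The lysosomal TRP genes *Mcoln1*, *Mcoln2* and *Mcoln3*, whose symbols the rule does not reach, differed by 0.28, -0.36 and -0.15. Of 7 sodium channel anchors and modulators 6 were higher under the -/- title, against 50.5% of all genes, with a median of 0.15. The 4 in the high tier, *Ank3*, *Cntn1*, *Fgf13* and *Nedd4l*, differed by 0.15, 0.13, 0.072 and -0.22. The largest difference of this list, 0.43, was that of *Fgf12*, at 6.02 under the -/- title and 5.58 under the +/+ title. Counts higher and lower were 6 and 1 for calcium release and store-operated entry, 4 and 4 for calcium pumps and exchangers, 5 and 2 for calcium buffers, 2 and 3 for calcium channel regulators, 2 and 2 for epithelial and acid-sensing sodium channels, 3 and 6 for other chloride channels and 2 and 2 for other TRP genes. Among markers, 3 of 9 cochlear genes and 2 of 6 of red blood cell precursors were higher.

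**Figure D4:**
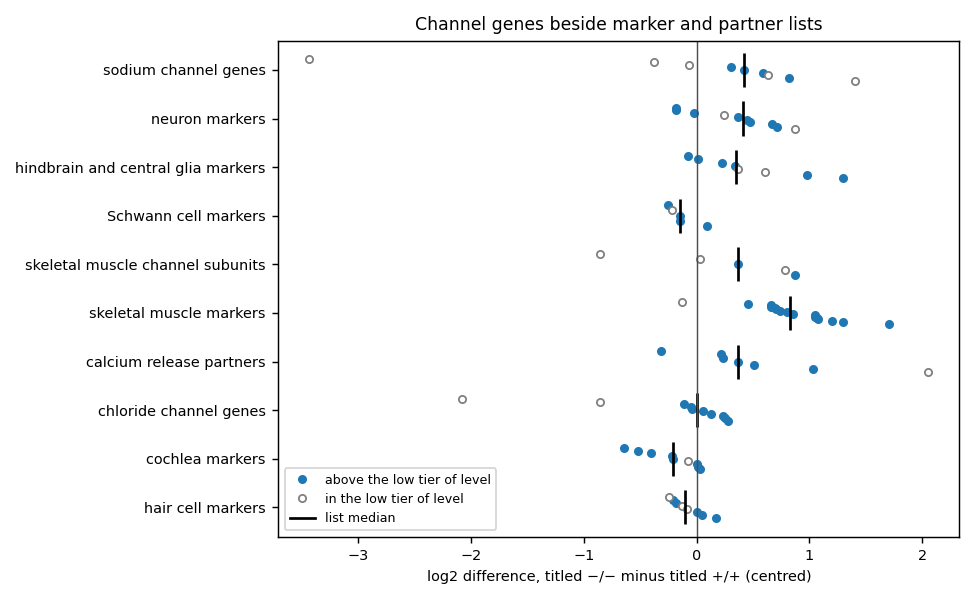
Centred log2 difference (titled -/- minus titled +/+) of each gene in 3 groups of channel genes, 1 partner list and 6 marker lists, with filled points above and open points in the low tier of level and a bar at each median. The filled points of the sodium channel genes and of skeletal muscle markers lie right of 0, while the cochlea markers have a median of -0.21.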

How the data were processed

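Values of 2 arrays were read per probe set as log2 levels, which the authors deposited for 22690 probe sets of the MOE430A array. Against 8 cochleae in the labels, the methods describe pools of 2 embryos. The methods name MAS5.0, RMA and PUMA (multi-mgMOS), and the sources used here do not state by which of them the deposited log2 values were made, or how arrays were scaled. The base was read from the largest value, 13.64 outside the controls. After 64 control probe sets were left out, 20380 probe sets had 1 symbol in the platform annotation, 691 several and 1555 none. Probe sets with several symbols named no gene, which left out 2 probe sets of *Trpc2*. All 57 genes matched the RefSeq table of GRCm38.p6 by gene identifier. Differences were centred on their median over all probe sets, 0.0218. Genes were divided into 3 tiers by mean level. The SD of differences among probe sets of a gene was pooled within each tier, with each probe set placed by its own level. Summed linear levels are sums of 2 raised to the level. No fit, test or interval was possible with 1 column of values per title, which may be 1 array or a summary of several, and arrays limit the precision by their number. Members and lists were chosen with earlier results of these data known. By the rule for named genes, every gene found by symbol could be named, and genes of the 8 partner and 10 marker lists were named where they had a level above the median, a difference past 1 or -1 or a level of 0. *Myo7a*, *Myod1*, *Fgf12*, *Esrrb*, *Mcoln1*, *Mcoln2* and *Mcoln3* are named outside this rule, after their values were seen. The alternatives were no centring, quantile normalization, loess with a span of 0.3 and values raised to the 25th percentile of all probe sets on each array. Further ones were genes above the median only, the mean over probe sets, no probe sets ending in _x_at or _s_at, and a limit of 2. A limit of 0.5, the high and middle tiers only and genes above 0 only were added after the data were seen. Steps were tested on simulated arrays. Python 3.11.15, numpy 2.4.6, pandas 2.3.3 and statsmodels 0.14.6 were used.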

Additional observations from a re-analysis of the deposited data

How the results depend on the processing

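No paired analysis was possible because each title had a single column of values. The median difference of the channel genes stayed between 0 and 0.15 under all alternatives. With values raised to the 25th percentile, 1 gene, *Scn10a*, remained above 1 and 0 below -1. Among genes above the median level, 0 were above 1, 0 below -1 and 10 of 15 higher under the -/- title, and among the high and middle tiers of level, 0, 0 and 23 of 31. These filters left out the low tier, which held all 9 genes past 1 or -1, and in the high and middle tiers 0.496% of all genes were above 1 and 0.157% below -1. Past a limit of 2 lay 1 gene above and 3 below -2, and past 0.5, 12 above and 5 below -0.5. *Trpm1* turned to 0.24 when its probe sets were averaged. By the same mean, *Scn2a* was at -0.63, *Cacna1h* at -0.64, *Cacnb4* at -0.55, *Clcn3* at -0.13, *Trpm7* at 0.28 and *Trpc1* at 1.57. Of the 31 genes above the low tier, 23 kept their sign under every alternative that read them and 8 did not. *Cacng1* stayed between 0.84 and 0.90, *Scn11a* between 0.80 and 0.84 and *Scn3b* between 0.50 and 0.61. Low signal limits the 26 genes of the low tier.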
